A study of Mus musculus with 40 samples.

Results

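The livers described here came from 10 female Crl:CD1(ICR) mice, an outbred strain of wildtype genotype, from a study of 40 mice of both sexes. The 5 treated females (mice 451 to 455) received 5 mg/kg of GenX per day, the highest dose given, and the 5 control females (mice 151 to 155) received 0 mg/kg. Both groups were dosed by oral gavage for 90 days, with deionized water as the vehicle, so the control females had the same handling without the compound. GenX is the trade name of the ammonium salt of a short perfluorinated ether acid that is used in making fluoropolymers. RNA from formalin-fixed, paraffin-embedded liver was read with TempO-Seq, an assay in which short DNA probes are joined on their target RNA, amplified and counted. The question was which genes differed between the livers of treated and control females, and where the females differed from the males at the same dose. These mice were chosen by their labels and not by a measured value, and every gene was read on its most counted probe. Of 21448 gene symbols on the panel, 12412 passed the filter on low counts and were tested.

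The control livers gave 11378292 to 15338058 reads and the treated livers 10961837 to 12918989 reads. The reads per captured molecule were estimated from the first peak of each library's counts. By this estimate the totals stand for 307766 to 521441 molecules in the controls and 306232 to 339820 in the treated livers. All molecule numbers below and the floor rest on it. Levels are given as CPM (reads scaled to 1000000 per library, after TMM scaling), a mean is given ± SD over 5 livers, and a fold change is on the log2 scale ± SE. A level of 3 molecules in a library, taken here as the floor, corresponded to 7.61 CPM on average in the controls and 8.90 CPM in the treated livers. CPM are not scaled to probe or gene length and are compared only within a gene. The Y-linked gene *Ddx3y*, looked up after its values were seen, was at 0 in all 10 females and had a mean of 39.8 CPM in male controls. Of 10 hepatocyte markers, *Alb* was counted at 4397, 4693, 4509.8, 4738 and 4478 CPM in the controls and 4191, 3887, 3407, 3708 and 4431 CPM in the treated livers, and 5 of the 10 markers passed the test below as decreased.

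The peroxisome proliferator-activated receptor alpha (PPARα) is a nuclear receptor that binds fatty acids and related acids, pairs with the retinoid X receptor and binds DNA at a repeated half-site. In rodent liver its target genes are known for fatty acid uptake, activation, ω-hydroxylation and oxidation in peroxisomes and mitochondria. Sustained activation in mice and rats enlarges the liver and increases the number of peroxisomes. The liver is also the source of most plasma proteins, and in mice many of its cytochrome P450 and sulfotransferase genes differ between females and males, a difference set largely by the pattern of growth hormone release.

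Between treated and control females, 508 of 12412 genes (4.09%) passed an adjusted p below 10% in edgeR's quasi-likelihood test, of which 260 (2.09%) were higher and 248 (2.00%) were lower in the treated mice. With the shallow library of mouse 355 (female, 0.5 mg/kg), left out here, kept in the model, 180 genes passed, 91 higher and 89 lower. The 508 genes are called differentially expressed genes (DEGs) below. The median log2 fold change was -0.01 over all genes tested, 0.93 over the increased and -0.95 over the decreased genes. Changes of at least 2-fold were seen for 125 increased and 115 decreased DEGs. For 309 DEGs (182 increased and 127 decreased) every treated liver lay on the same side of every control, against 3.71% of all genes tested. Of 322 other probes of these DEGs, 291 had the same sign of change as the most counted probe. The test was passed by 109 in the same direction and by 0 in the opposite direction. For 29 DEGs both group means lay under the floor, and these are not described further except where named.

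The half-site repeat bound by PPARα was searched as the half-site AGGNCA followed, after any 1 base, by AGGNCA again, on both strands of promoters of 300 bases (250 before and 50 after the gene start) of RefSeq genes on GRCm38.p6. It was present in 125 of 32851 promoters and in 0.451% of genes with a promoter. Of the increased DEGs in the gene lists used below, 99 had a promoter in the table, and 1 held the motif, *Fabp1*. Among the decreased DEGs in these lists 1 of 96 held it, *F7*. Over all DEGs with a promoter, in a list or not, it was in 1 of 199 increased (0.503%) and 3 of 198 decreased genes (1.52%). No test was made of these shares. The stretches of *Fabp1* and *F7* are shown because they are the letters in these windows that match the repeat, with the match in capitals, 5′ to 3′ on the minus strand. The *Fabp1* stretch is chr6:71199803-71199832 and the match begins 67 bases before the gene start, and the *F7* stretch is chr8:13025991-13026020 with its match beginning 34 bases before the start.
*Fabp1*: tcagatatAGGCCATAGGTCAgtgattgtc
*F7*: ctgccgggAGGGCAAAGGTCAggggggagg
A match is a description of the letters, and its absence from a window says nothing about binding elsewhere. *Fabp1* and *F7* moved in opposite directions, as given below.

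The PPARs, RXRs and coregulators had 18 genes tested, of which 0 were increased and 1 was decreased. The share called, 5.56%, was near the 4.09% over all genes tested. *Ppara*, which encodes the receptor itself, was counted at 62.2, 92.8, 173, 76.9 and 178 CPM in the controls and 92.8, 80.7, 245, 194 and 128 CPM in the treated females. The groups overlapped over most of their range (log2 fold change 0.35 ± 0.28, adjusted p = 0.786). The decreased member was *Lpin1*, which encodes a phosphatidate phosphatase that also acts as a coregulator, and its levels were 128, 889, 1228, 290.1 and 1284 CPM in controls and 59.2, 146, 297, 199.8 and 196 CPM in treated livers. Controls 151 and 154 lay within the range of the treated livers and the other controls lay above it, with a log2 fold change of -2.09 ± 0.54, adjusted p = 0.0163.

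Of 19 tested genes of fatty acid uptake and binding 8 were increased and 1 was decreased, with a median log2 fold change of 0.65 over the 19. *Fabp1*, the major fatty acid-binding protein of hepatocytes, stood at 3930.4, 2217, 3655, 3486 and 2924 CPM in the controls and 10144, 11604, 9879, 11569.6 and 13860.4 CPM in the treated mice. Every treated liver lay far above the highest control (log2 fold change 1.82 ± 0.15, adjusted p = 2.52e-13). *Cd36*, a membrane carrier of fatty acids, had 12.3, 1.97, 43.6, 43.3 and 11.4 CPM in controls and 268, 200.1, 193, 249 and 213 CPM in treated mice. The groups did not overlap (log2 fold change 3.32 ± 0.54, adjusted p = 2.46e-05). *Dbi*, the cytosolic binding protein of acyl-CoA, was at 398, 265, 346, 312 and 365 CPM in the controls and 784, 859, 706, 732 and 913 CPM in the treated livers, again without overlap (log2 fold change 1.24 ± 0.13, adjusted p = 4.36e-10). *Fabp3*, a binding protein typical of heart and muscle, had no molecule in any control and 25.1, 86.1, 9.4, 59.5 and 54.3 CPM in the treated livers. That is at least 6.16-fold higher than the floor of the controls. *Slc27a5*, which activates bile acids and very long-chain fatty acids, was the decreased member (log2 fold change -0.47 ± 0.15, adjusted p = 0.0919), and the call was lost without mouse 151, 152, 153, 452, 454 or 455 (adjusted p up to 0.318). For *Slc27a2*, a very long-chain acyl-CoA synthetase of peroxisomes, the most counted probe read 3411, 20.5, 3064, 3301 and 1784 CPM in the treated mice and did not pass the test (adjusted p = 0.793), with mouse 452 far below the others. Both other tested probes of *Slc27a2* were increased, with log2 fold changes of 1.05 and 1.02 and adjusted p values of 3.44e-05 and 2.87e-05.

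Acyl-CoA synthetases activate fatty acids to their CoA esters, and of 14 such genes 3 were increased and 1, *Acsm2*, was decreased (log2 fold change -2.19 ± 0.71, adjusted p = 0.0957). For *Acsm2* the call was lost without mouse 151, 153, 154, 155, 452, 453, 454 or 455 (adjusted p up to 0.309). *Acsl1*, the main long-chain enzyme of liver, was at 1413, 1199, 1605, 1439 and 1537 CPM in controls and 4107, 3195, 3380.4, 3418 and 4091 CPM in treated livers. The groups were far apart, and the log2 fold change was 1.34 ± 0.11, adjusted p = 5.34e-13. *Acsl5* (1.09 ± 0.22, adjusted p = 0.00115) and *Acsf2* (1.36 ± 0.19, adjusted p = 7.53e-07) were the other increased members on the log2 scale, and neither had overlapping groups. The acyl-CoA thioesterases, which release the free acid, had the largest median of the 41 functional lists, 2.37 over 11 tested genes, with 5 increased and 0 decreased. *Acot1*, the cytosolic long-chain enzyme, was at 24, 48.5, 79.2, 65.7 and 79.8 CPM in the controls and 1225, 1191, 741, 1038 and 1448 CPM in the treated mice. All treated livers were far above all controls (log2 fold change 4.25 ± 0.28, adjusted p = 1.07e-16). *Acot2*, its mitochondrial relative, rose from 0, 0, 4.53, 5.17 and 3.32 CPM to 133, 164, 28, 63.6 and 94.6 CPM (log2 fold change 5.20 ± 0.99, adjusted p = 0.000392). *Acot1* and *Acot2* are near-identical paralogs, and how far their probes tell them apart was not tested. *Acot3*, a peroxisomal enzyme, was at 27.1, 40.3, 75.5, 121 and 21.6 CPM in the controls and 452, 202, 267, 304 and 256 CPM in the treated livers. Its groups did not overlap, but the call was lost without mouse 151, 152, 155 or 451 (adjusted p up to 0.139), and without mouse 151, 155 or 451 only 3 thioesterase genes were increased.

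The *Cyp4* genes encode the P450 enzymes that hydroxylate the far end of fatty acids. Of 13 tested, 6 were increased and 1 was decreased, and the summed level of the 13 rose from 623 ± 158 CPM to 4849 ± 448 CPM (SD, n = 5). *Cyp4a10* had 76.8, 139, 264, 77.9 and 207 CPM in the controls and 2731, 2096, 2601, 2424 and 2755 CPM in the treated mice. *Cyp4a14* had 6.12, 18.7, 86.8, 2.7 and 25.5 CPM in the controls and 674, 948, 991, 1100.3 and 1089.9 CPM in the treated mice. The treated livers lay in a narrow range for both genes while the controls were widely spread, and the log2 fold changes were 4.04 ± 0.38, adjusted p = 3.01e-11 and 5.10 ± 0.68, adjusted p = 4.22e-07. *Cyp4a31* rose from 51.5 ± 19.8 to 835 ± 99.1 CPM on average (log2 fold change 4.02 ± 0.26, adjusted p = 6.53e-17). *Cyp4a12a* and *Cyp4a12b* are normally counted as male-specific hydroxylases. *Cyp4a12a* had 0 molecules in the 5 control females and 255 molecules in the 5 treated females, with 64.8, 189.9, 153, 119 and 221 CPM. This is at least 19.7-fold higher than the floor. *Cyp4a12b* had 0 molecules in the controls and 13.4, 27.2, 46.1, 5.27 and 31.9 CPM in the treated females, at least 3.26-fold higher. These genes are close copies of each other, and the share of reads that their probes exchange was not tested. *Cyp4f14*, of another subfamily, was the decreased member, with 122, 122, 119.9, 89.5 and 132 CPM in controls and 13.5, 18.1, 43.7, 24.8 and 32.2 CPM in treated livers. Its groups did not overlap (log2 fold change -2.15 ± 0.27, adjusted p = 1.19e-07).

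**Figure D1:**
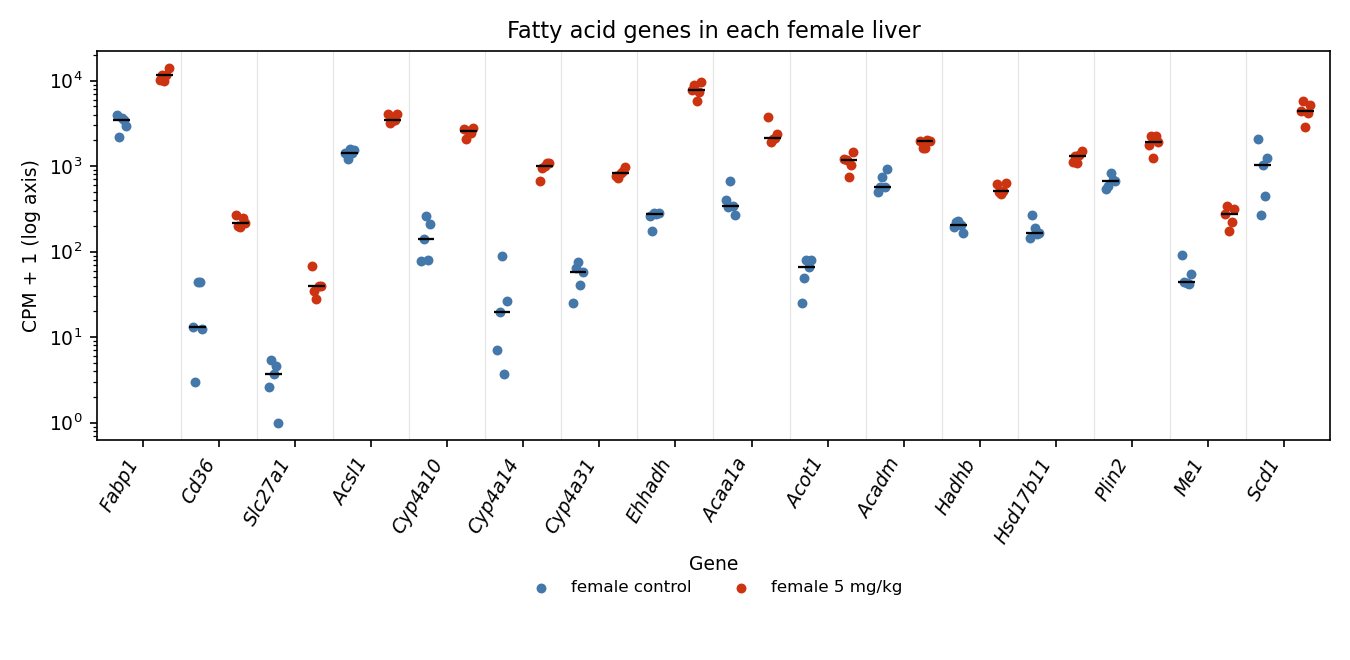
Level of 16 genes of fatty acid uptake, oxidation, storage and synthesis in each female liver, as CPM + 1 on a log axis. Each point is 1 liver, blue for the 5 controls and red for the 5 mice at 5 mg/kg, and the bar is the median of the group. The points of the groups do not overlap for the 16 genes, and the gap is widest for *Ehhadh*, whose treated livers lay between 5792 and 9511 CPM against 172 to 282 CPM.

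Peroxisomal β-oxidation shortens very long-chain and dicarboxylic acids, and 10 of its 24 tested genes were increased and 0 decreased. *Ehhadh*, the bifunctional enzyme of the pathway, had the smallest p of all genes tested. Its levels were 258, 172, 280.2, 274 and 282 CPM in the controls and 7670.3, 8978, 5792, 7389.5 and 9511 CPM in the treated females. The lowest treated liver lay far above the highest control (log2 fold change 4.96 ± 0.19, adjusted p = 6.21e-26). *Acaa1a*, the thiolase of the last step, had 406, 332, 673, 343 and 264 CPM in controls and 3798, 1918, 2083, 2109 and 2358 CPM in treated mice (log2 fold change 2.60 ± 0.24, adjusted p = 2.04e-11). Its paralog *Acaa1b* rose from 5.72 ± 2.23 to 62.1 ± 21.2 CPM (log2 fold change 3.44 ± 0.55, adjusted p = 1.89e-05). *Hsd17b4*, the other bifunctional enzyme, rose from 371 ± 44.1 to 701 ± 51.0 CPM (log2 fold change 0.92 ± 0.11, adjusted p = 1.67e-08). *Crot*, which makes carnitine esters of the shortened acids, rose from 81.1 ± 25.7 to 197 ± 55.5 CPM (log2 fold change 1.28 ± 0.27, adjusted p = 0.00153), and *Ech1*, which handles double bonds, from 7.81 ± 4.18 to 28.7 ± 7.47 CPM (log2 fold change 1.88 ± 0.45, adjusted p = 0.00831). *Ephx2*, the soluble epoxide hydrolase that is found in the cytosol and in peroxisomes, was at 650.4, 740.1, 779, 633 and 721 CPM in the controls and 2544, 2251, 2115, 2195 and 2473 CPM in the treated livers. The treated livers were tightly grouped above the controls (log2 fold change 1.72 ± 0.10, adjusted p = 3.83e-18). *Cat*, which encodes the peroxisomal enzyme that removes hydrogen peroxide, was at 1738, 1546, 1563, 1737 and 1802 CPM in controls and 1885, 1858, 2177, 1999 and 1871 CPM in treated livers. The groups did not overlap but the change was small and did not pass the test (log2 fold change 0.22 ± 0.10, adjusted p = 0.258).

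Genes that build the peroxisome changed in part. Of 25 tested peroxins and peroxisomal membrane proteins 5 were increased and 0 decreased, with a median log2 fold change of 0.00. *Pex11a*, which promotes division of peroxisomes, had 13, 14.2, 40.1, 14.3 and 61.6 CPM in the controls and 108, 117, 62.5, 127 and 112 CPM in the treated livers. Mouse 453, the lowest treated liver, lay just above the highest control, and the log2 fold change was 1.87 ± 0.35, adjusted p = 0.000265. *Abcd3*, an importer of acyl-CoA, rose from 35.2 ± 5.31 to 137 ± 50.3 CPM (log2 fold change 1.96 ± 0.29, adjusted p = 3.2e-06), *Pex16*, needed for membrane assembly, from 154 ± 31.2 to 275 ± 32.9 CPM (0.84 ± 0.16, adjusted p = 0.000382) and its import receptor partner *Pex19* from 131 ± 9.03 to 207 ± 35.7 CPM (0.66 ± 0.18, adjusted p = 0.0272).

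In mitochondria, 12 of 25 tested β-oxidation genes were increased and 0 decreased, with a median log2 fold change of 0.44. *Acadm*, the medium-chain dehydrogenase, was at 492, 564, 751, 575 and 931 CPM in controls and 1984, 1648, 1647, 2019 and 1992 CPM in treated mice. *Hadhb*, the thiolase subunit of the trifunctional protein, was at 191, 219, 228, 201 and 163 CPM in controls and 622, 492, 477, 514 and 641 CPM in treated mice. Neither gene had overlapping groups, and the log2 fold changes were 1.49 ± 0.14, adjusted p = 1.52e-11 and 1.45 ± 0.13, adjusted p = 1.52e-11. *Acadl* (1.51 ± 0.15, adjusted p = 9.97e-11), *Decr1* (1.64 ± 0.14, adjusted p = 2.43e-12) and *Eci1* (1.64 ± 0.19, adjusted p = 7.61e-09), which act on long-chain and unsaturated acids, also rose. The most abundant, *Acaa2*, rose from 3273 ± 324 to 5713 ± 414 CPM (log2 fold change 0.80 ± 0.09, adjusted p = 2.7e-09). For the carnitine shuttle that carries acids into mitochondria, 3 of 11 genes were increased: *Cpt2* (1.17 ± 0.25, adjusted p = 0.00211), the carrier *Slc25a20* (1.56 ± 0.38, adjusted p = 0.00812) and *Aldh9a1* of carnitine synthesis (0.81 ± 0.15, adjusted p = 0.000222). The liver form of the entry enzyme, *Cpt1a*, was near the floor on its most counted probe in both groups, at 10.8 ± 9.31 to 6.72 ± 5.01 CPM, and did not pass the test (adjusted p = 1). Another form, *Cpt1b*, also did not pass on its most counted probe. A second probe of *Cpt1b* passed as increased (log2 fold change 10.43, adjusted p = 0.000377), and a further probe did not pass (4.90, adjusted p = 0.257).

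Ketone body synthesis and the control of pyruvate dehydrogenase had 3 of 18 members increased. *Slc16a1*, the carrier of ketone bodies and lactate, was at 242, 119.5, 198, 209 and 241 CPM in the controls and 454, 495, 357, 493 and 497 CPM in the treated livers (log2 fold change 1.19 ± 0.16, adjusted p = 7.29e-07). *Acat1* (0.84 ± 0.15, adjusted p = 0.00013) and *Bdh1* (0.75 ± 0.19, adjusted p = 0.0105) of ketone body synthesis rose less. *Pdk4*, a kinase that switches off pyruvate dehydrogenase, was at 2.9 ± 3.48 to 19.8 ± 9.3 CPM and did not pass the test (adjusted p = 0.26).

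Of 76 tested genes of oxidative phosphorylation, uncoupling proteins included, 71 had a positive log2 fold change, with a median of 0.36. Of the 76, 17 passed the test as increased and 0 as decreased. The 17 include uncoupling protein genes, among them *Ucp3*, whose mean lay under the floor in both groups. The summed level of the 76 genes was 15494 to 17050.0 CPM in the controls and 19856 to 22019 CPM in the treated livers. *Cox7c*, a subunit of cytochrome c oxidase, had 417, 328, 429, 392 and 437 CPM in controls and 734, 627, 650.4, 689 and 674 CPM in treated mice. Its groups did not overlap (log2 fold change 0.75 ± 0.11, adjusted p = 1.8e-06). *Atp5g3* of the ATP synthase (0.65 ± 0.12, adjusted p = 0.000152), *Uqcrc2* of complex III (0.58 ± 0.12, adjusted p = 0.000724) and *Ndufab1* of complex I (0.88 ± 0.18, adjusted p = 0.00086) also rose. The count is sensitive to single livers, with 10 genes increased without control 155 and 12 without mouse 451. In the tricarboxylic acid cycle 3 of 19 genes were increased, *Dlst* (0.60 ± 0.12, adjusted p = 0.000452), *Suclg2* (0.64 ± 0.13, adjusted p = 0.000724) and *Idh2* (0.65 ± 0.18, adjusted p = 0.0318), and for *Idh2* the call was lost without mouse 151 or 153 (adjusted p up to 0.149).

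Of 27 genes of fatty acid synthesis, elongation and desaturation, 6 were increased and 0 decreased. *Scd1*, the stearoyl-CoA desaturase that makes oleate, was at 2059, 264, 1018, 445 and 1249.8 CPM in the controls and 4385, 5749, 2862, 4182 and 5146 CPM in the treated livers. The controls were spread widely and all lay below the treated livers (log2 fold change 2.15 ± 0.40, adjusted p = 0.000305). *Me1*, which supplies NADPH, had 89.9, 43.3, 42.4, 40.9 and 53.4 CPM in controls and 272, 337, 173, 224 and 314 CPM in treated mice (log2 fold change 2.29 ± 0.31, adjusted p = 7.53e-07). *Elovl5* (1.28 ± 0.22, adjusted p = 5.97e-05) and *Fads2* (0.98 ± 0.18, adjusted p = 0.000272), which lengthen and desaturate polyunsaturated acids, also rose. *Fasn*, the fatty acid synthase, was at 64.2 ± 27.7 to 126 ± 61.2 CPM with overlapping groups and did not pass the test (log2 fold change 0.97 ± 0.33, adjusted p = 0.117), and *Srebf1* was at or under the floor in both groups.

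Of 21 genes of lipid droplets and lipases, 5 were increased and 0 decreased. *Plin2*, the coat protein of hepatocyte lipid droplets, had 546, 590.3, 839, 683 and 663 CPM in the controls and 1763, 2279, 1234, 2241 and 1901 CPM in the treated livers. *Hsd17b11*, a droplet-associated dehydrogenase, had 144, 269, 190.2, 161 and 164 CPM in controls and 1106, 1324, 1095, 1341 and 1484 CPM in treated livers. Neither gene had overlapping groups, and the log2 fold changes were 1.5 ± 0.19, adjusted p = 5.28e-08 and 2.77 ± 0.17, adjusted p = 1.85e-17. *Mgll*, which cleaves monoglycerides, rose from 28.1 ± 7.54 to 91.8 ± 21.4 CPM (log2 fold change 1.71 ± 0.29, adjusted p = 6.49e-05). *Fitm1*, a droplet-forming protein of muscle, had 1 molecule in the controls and 29 in the treated livers, a ratio of 35.1 with an exact interval for counting error of 5.83 to 1.44e+03. Among 21 genes of triglyceride and phospholipid synthesis 4 were increased and 2 decreased. *Chpt1* of phosphatidylcholine synthesis rose (1.34 ± 0.18, adjusted p = 6.95e-07) while *Pemt*, of the other route to phosphatidylcholine, fell (-0.61 ± 0.15, adjusted p = 0.00786). *Gpd1*, which supplies glycerol phosphate, rose from 1022 ± 75.9 to 1738 ± 328 CPM (0.77 ± 0.13, adjusted p = 6.45e-05).

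Genes of cholesterol synthesis and of the SREBP2 response had 3 of 27 members increased and 1 decreased, with a median log2 fold change of 0.07. *Pmvk*, of the mevalonate pathway, rose from 163 ± 34 to 304 ± 68.5 CPM (log2 fold change 0.90 ± 0.20, adjusted p = 0.0038), and without control 152 only 1 member was increased.

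Of 25 apolipoproteins and lipoprotein-handling genes 5 were decreased and 1 was increased. *Apoa4*, an apolipoprotein of intestine and liver, had 404, 868, 578, 450.2 and 536 CPM in the controls and 68.7, 39.9, 87.2, 24.3 and 88.9 CPM in the treated livers. It was the most strongly decreased gene of the list, without overlap (log2 fold change -3.20 ± 0.35, adjusted p = 2.41e-09). *Apoc3*, an inhibitor of triglyceride clearance, had 5036, 6227, 5711, 4819 and 5506 CPM in controls and 3624, 2848, 3654, 3344 and 3195 CPM in treated livers, also without overlap (log2 fold change -0.71 ± 0.11, adjusted p = 4.91e-06). *Apof* (-0.74 ± 0.14, adjusted p = 0.000377) and *Apoh* (-0.50 ± 0.12, adjusted p = 0.0133) fell as well. *Mttp*, which loads lipid onto nascent particles, was the increased member (0.46 ± 0.13, adjusted p = 0.03), and the call was lost without mouse 455 (adjusted p up to 0.12). *Apob*, the structural protein of those particles, did not pass the test, at 414 ± 74.2 to 351 ± 36.7 CPM.

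Bile acid synthesis and transport had 5 of 27 members decreased and 0 increased. *Abcb11*, the export pump for bile salts, was at 557, 634, 764, 585 and 713 CPM in the controls and 463, 345, 315, 391 and 396 CPM in the treated livers, without overlap (log2 fold change -0.77 ± 0.17, adjusted p = 0.00301). *Slc10a1*, the uptake carrier for bile salts, was at 241, 277, 323, 319 and 293 CPM in the controls and 152, 111, 253, 160.1 and 147 CPM in the treated livers, where mouse 453 lay within the controls (log2 fold change -0.82 ± 0.17, adjusted p = 0.00171). *Cyp27a1* of the acidic pathway fell too (-0.86 ± 0.20, adjusted p = 0.00528). *Cyp7a1*, the rate-limiting enzyme of bile acid synthesis, was at 57.8, 147, 88.3, 146 and 53.2 CPM in controls and 58.4, 52.1, 182, 8.12 and 143 CPM in treated livers and varied over the same range in both groups (adjusted p = 1). Without mouse 152, 452 or 454 the count of decreased members was 3.

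Secreted plasma proteins are a main product of hepatocytes. Of 39 tested acute-phase proteins and secreted serpins 15 were decreased and 1 was increased, and their summed level was 46575 to 54757 CPM in the controls and 29104 to 30555 CPM in the treated livers. *Serpina1e*, an α1-antitrypsin gene, had 8785, 10921, 10977, 8871 and 7097 CPM in controls and 2576, 2440.2, 2749.7, 2029 and 2547 CPM in treated livers. The groups were far apart (log2 fold change -1.92 ± 0.14, adjusted p = 2.64e-15). Its near-identical copies *Serpina1a* (-2.08 ± 0.21, adjusted p = 1e-10) and *Serpina1d* (-2.03 ± 0.20, adjusted p = 2.13e-10) fell by about as much, and reads of these copies may be shared. *Serpina3k*, another secreted serpin, was at 2789.9, 2504, 3783, 2113 and 3321 CPM in controls and 959.7, 683, 1260.0, 1334 and 994 CPM in treated livers (log2 fold change -1.47 ± 0.17, adjusted p = 1.04e-08). *Alb* (-0.22 ± 0.11, adjusted p = 0.308) and *Hp*, whose product binds haemoglobin (-0.03 ± 0.21, adjusted p = 1), did not pass the test.

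Coagulation and fibrinolysis had 14 of 30 tested genes decreased and 0 increased, and 2 of the 30 had a positive log2 fold change. The 3 fibrinogen chains fell together. *Fga* had 5214, 5261, 5653, 3926 and 5311 CPM in the controls and 2484, 3771, 2032, 3187 and 2469.5 CPM in the treated livers (log2 fold change -0.86 ± 0.14, adjusted p = 1.34e-05). *Fgg* had 3228, 3558, 3398, 2725 and 4109 CPM in controls and 1651, 2456, 1618, 2086 and 1912 CPM in treated livers (log2 fold change -0.81 ± 0.13, adjusted p = 2.92e-05). Neither overlapped, while *Fgb* overlapped slightly (-0.69 ± 0.13, adjusted p = 0.000498). *Plg*, the precursor of plasmin (-0.63 ± 0.10, adjusted p = 1.22e-05), and *Serpinf2*, the plasmin inhibitor (-0.78 ± 0.13, adjusted p = 3.9e-05), also fell. *F7*, whose promoter stretch is printed above, was at 58.3, 110.4, 90.4, 69.8 and 71.0 CPM in the controls and 41.5, 28.5, 23.6, 35.8 and 54.7 CPM in the treated mice. Its groups did not overlap (log2 fold change -1.12 ± 0.24, adjusted p = 0.00185). Without mouse 454 the count of decreased members was 9.

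In the complement system 9 of 32 tested genes were decreased and 0 increased. *C9*, a component of the membrane attack complex, was at 393, 354, 561, 458 and 540.4 CPM in the controls and 107, 144, 119.6, 84.3 and 100.1 CPM in the treated livers. *C1s1*, a protease of the classical pathway, was at 422, 446, 394, 376 and 337 CPM in the controls and 184, 68.8, 85.9, 159 and 146 CPM in the treated livers. Neither overlapped, and the log2 fold changes were -2.06 ± 0.28, adjusted p = 7.53e-07 and -1.62 ± 0.24, adjusted p = 2.53e-06. *Cfi*, a protease that inactivates complement (-0.91 ± 0.14, adjusted p = 1.49e-05), and *C8b* (-1.25 ± 0.28, adjusted p = 0.00364) also fell. The central component *C3* was at 3039.9 ± 249.7 to 2876 ± 312 CPM and did not pass the test (log2 fold change -0.08 ± 0.11, adjusted p = 1). Of 24 hepatokines and secreted metabolic regulators 4 were decreased and 0 increased. *Ahsg*, the secreted fetuin-A, had 2327, 3200.1, 2373, 2512 and 3459.9 CPM in controls and 1279, 977, 1930.2, 1475 and 1471 CPM in treated livers without overlap (log2 fold change -0.96 ± 0.15, adjusted p = 1.49e-05). *Igfbp4*, which binds insulin-like growth factors (-0.75 ± 0.15, adjusted p = 0.000681), and the chemotactic protein *Lect2* (-1.26 ± 0.22, adjusted p = 0.000105) fell as well. *Fgf21*, a hormone induced in fasting, was under the floor in both groups on its most counted probe. Another probe of *Fgf21* passed as increased with a log2 fold change of 8.63 (adjusted p = 0.0689), also at levels under the floor, with no read in the controls.

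**Figure D2:**
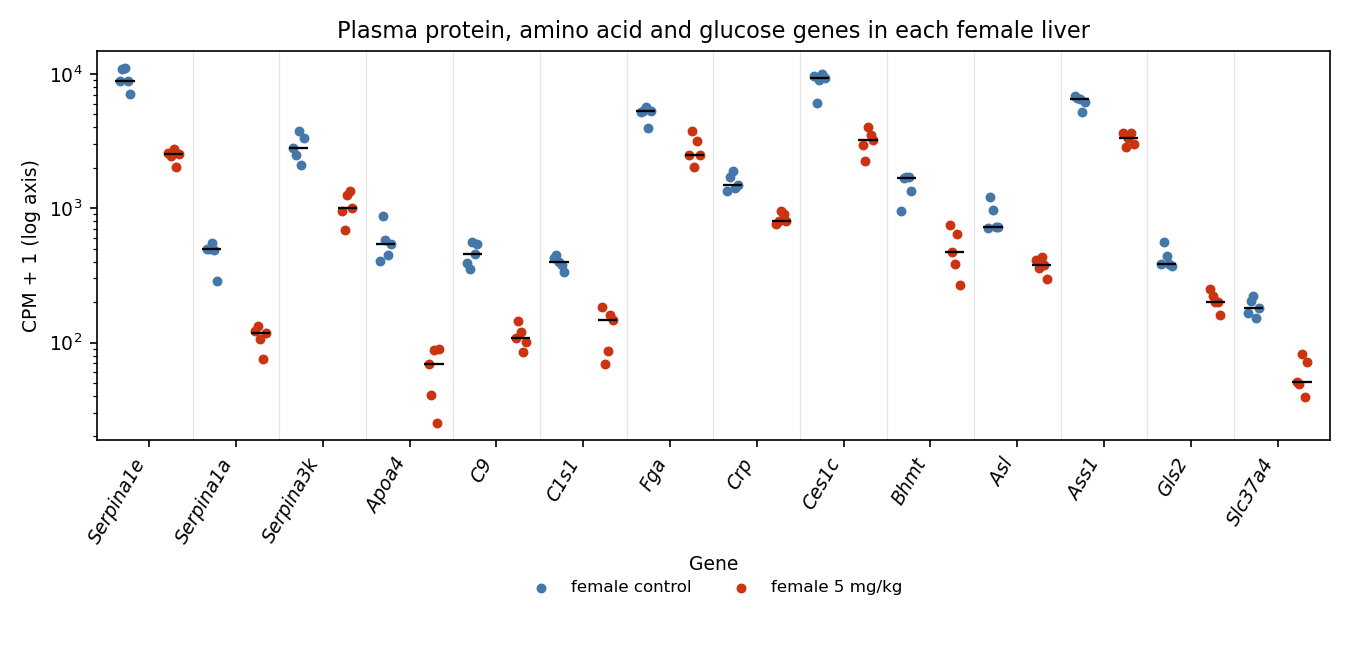
Level of 14 decreased genes of plasma proteins, drug hydrolysis, amino acid and glucose metabolism in each female liver, as CPM + 1 on a log axis. Points are single livers, blue for the 5 controls and red for the 5 mice at 5 mg/kg, and the bar is the group median. No red point reaches the blue points of its gene, with *Apoa4* the widest gap.

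Amino acid metabolism had the most decreased members of the functional lists, 23 of 68 tested genes, with 1 increased and a median log2 fold change of -0.44. *Ass1* and *Asl* are consecutive enzymes of the urea cycle. *Ass1* was at 6853, 6591, 6472, 5196 and 6150.4 CPM in the controls and 3603, 2833, 3318, 3615 and 2998 CPM in the treated livers. *Asl* was at 716, 1209.5, 977, 724 and 727 CPM in the controls and 413, 358, 432, 377 and 296 CPM in the treated livers. Both lacked overlap, with log2 fold changes of -0.93 ± 0.14, adjusted p = 8.79e-06 and -1.21 ± 0.16, adjusted p = 1.45e-07. The first enzyme of the cycle, *Cps1*, fell on a probe with few reads (log2 fold change -1.02 ± 0.24, adjusted p = 0.00683), and the call was lost without mouse 155 (adjusted p up to 0.114). The last, *Arg1*, was at 4922 ± 869 to 4017 ± 352 CPM and did not pass the test (log2 fold change -0.29 ± 0.13, adjusted p = 0.258). *Bhmt*, which remethylates homocysteine, had 948, 1668, 1714, 1707 and 1339 CPM in the controls and 755, 467, 382, 639.6 and 266 CPM in the treated livers (log2 fold change -1.56 ± 0.24, adjusted p = 7.91e-06). *Prodh*, of proline breakdown (-1.53 ± 0.24, adjusted p = 1.03e-05), and *Gls2*, the liver glutaminase (-1.06 ± 0.18, adjusted p = 3.44e-05), also fell. The increased member was *Csad*, which makes taurine from cysteine, at 11.1, 3.6, 4.78, 4.53 and 15.1 CPM in the controls and 12.3, 35.7, 56.2, 54.2 and 52.2 CPM in the treated livers. Mouse 451 alone lay within the controls (log2 fold change 2.43 ± 0.43, adjusted p = 0.000103).

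In glucose and glycogen metabolism 6 of 32 tested genes were decreased and 1 was increased. *Slc37a4*, the carrier of glucose 6-phosphate into the endoplasmic reticulum, had 166, 203, 221, 152 and 179 CPM in the controls and 49.7, 47.8, 81.3, 38.6 and 70.3 CPM in the treated livers. The groups were well separated (log2 fold change -1.68 ± 0.21, adjusted p = 9.91e-08). *Pygl*, the liver glycogen phosphorylase (-0.53 ± 0.12, adjusted p = 0.00486), and *Pklr*, the liver pyruvate kinase (-1.82 ± 0.41, adjusted p = 0.00381), fell too, the latter close to the floor in treated livers at 22.3 ± 8.5 to 6.31 ± 3.69 CPM. *G6pc*, the phosphatase that shares the substrate of *Slc37a4*, overlapped between the groups and did not pass the test (log2 fold change -0.33 ± 0.48, adjusted p = 1). Genes with a gradient between portal and central hepatocytes had 10 of 24 decreased and 0 increased, among them *Ass1*, *Gls2* and *Cps1* above, and 6 without mouse 154, 452 or 455.

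**Figure D3:**
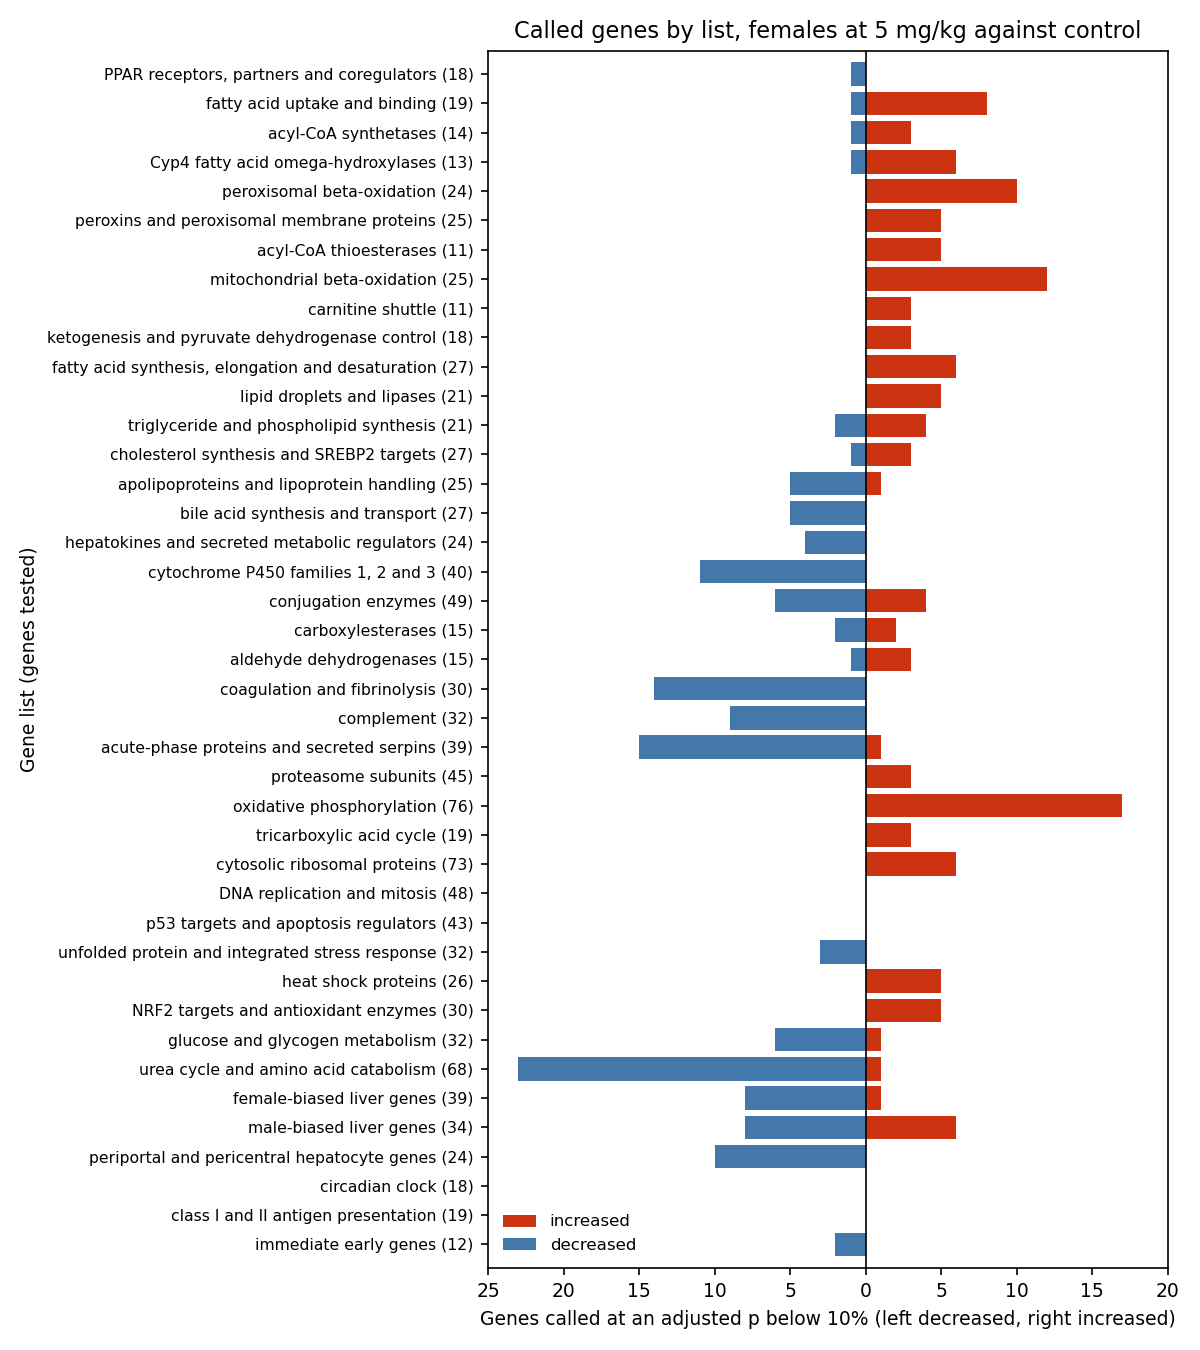
Number of DEGs in each of the 41 functional gene lists, increased to the right in red and decreased to the left in blue, in females at 5 mg/kg. The lists of lipid oxidation and oxidative phosphorylation hold only increased or mostly increased DEGs, and the longest decreased bar is the 23 genes of the urea cycle and amino acid catabolism.

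Among 40 tested P450 genes of families 1 to 3, the enzymes of steroid and drug oxidation, 11 were decreased and 0 increased. *Cyp2c70*, which acts on bile acids, had 1425, 868, 1486, 924 and 1072 CPM in the controls and 584, 359, 222, 410.4 and 263 CPM in the treated livers, without overlap (log2 fold change -1.65 ± 0.24, adjusted p = 1.8e-06). *Cyp2c29* fell from 1133 ± 226 to 577 ± 118 CPM (log2 fold change -0.97 ± 0.17, adjusted p = 6.57e-05). *Cyp2b10*, the gene commonly read as a sign of activity of the receptor CAR, was at 120.0, 169, 157, 91.6 and 76.0 CPM in the controls and 69.6, 36.4, 30.6, 49.1 and 39.8 CPM in the treated livers. All treated livers were lower, but the change did not pass the test (log2 fold change -1.44 ± 0.53, adjusted p = 0.18). *Cyp3a11*, often read for the receptor PXR, was at 319 ± 232 to 471 ± 148 CPM and did not pass either (log2 fold change 0.56 ± 0.37, adjusted p = 0.576), nor did *Cyp2e1* (0.10 ± 0.18, adjusted p = 1). Without mouse 452 the count of decreased P450 genes was 7.

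Of 49 conjugation enzymes 4 were increased and 6 decreased. *Gstt2*, a glutathione transferase, had 73.7, 113, 78.0, 93.2 and 87.5 CPM in the controls and 299.5, 277, 282, 249 and 375 CPM in the treated livers, with no overlap (log2 fold change 1.74 ± 0.20, adjusted p = 1.56e-08), and *Gstm4* rose as well (1.53 ± 0.25, adjusted p = 2.29e-05). *Gstm2*, of the same family as *Gstm4*, moved the other way, from 138, 79.5, 113, 213 and 177 CPM to 34.4, 40.4, 45.5, 37.7 and 21.8 CPM (log2 fold change -2.0 ± 0.33, adjusted p = 3.62e-05). *Sult1a1* fell from 1256 ± 460.5 to 500.2 ± 203 CPM (-1.33 ± 0.25, adjusted p = 0.000406). Of 15 carboxylesterases 2 were increased and 2 decreased. *Ces1c*, a secreted esterase of plasma, was at 9633, 6108, 8939.7, 9903 and 9316 CPM in the controls and 2942, 2257, 4009, 3490.2 and 3201 CPM in the treated livers (log2 fold change -1.47 ± 0.15, adjusted p = 5.08e-10). *Ces3b* fell (-1.41 ± 0.20, adjusted p = 1.6e-06) while *Ces2c* (1.95 ± 0.35, adjusted p = 0.000185) and *Ces1f* (0.68 ± 0.16, adjusted p = 0.00842) rose. Among 15 aldehyde dehydrogenases 3 were increased and 1 decreased. *Aldh3a2*, which oxidises fatty aldehydes, was at 294, 312, 378, 515 and 364 CPM in the controls and 1337, 1461, 1096, 1140.1 and 1399 CPM in the treated livers (log2 fold change 1.79 ± 0.17, adjusted p = 3.99e-11). *Aldh1l1*, of folate metabolism, was the decreased member (-0.96 ± 0.18, adjusted p = 0.00024).

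Genes known for higher expression in female than in male mouse liver fell in a subset. Of 39 tested, 8 were decreased and 1 was increased, and their summed level was 10448, 10412, 11811, 15353 and 12166 CPM in the controls and 8047, 1851, 2008, 1648 and 2009 CPM in mice 451 to 455 in that order. Mouse 451 was close to the controls and the other treated livers were far below them. *Cyp3a41a*, a female-specific steroid hydroxylase, had 2950.3, 2714, 2811, 3938 and 3867 CPM in the controls and 1071, 210.5, 142, 171 and 189 CPM in the treated livers. The value of mouse 451 was several times those of the other treated livers and still below all controls. The log2 fold change was -3.19 ± 0.38, adjusted p = 1.58e-08, and -4.19 with an adjusted p of 1.69e-14 without mouse 451. *Cyp3a41b*, a near-identical copy whose reads may be shared with it, also had its highest treated value in mouse 451 (log2 fold change -1.62 ± 0.20, adjusted p = 9.55e-08). *Cyp3a44* had 29.5, 29.1, 22.3, 44.4 and 57.0 CPM in the controls and 0 molecules in the 5 treated livers, at least 4.1-fold lower than the controls.

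The same liver stood apart for other genes of this kind. *Sult3a1*, a female-specific sulfotransferase, was at 1721, 2543, 862, 1323 and 838 CPM in the controls and 655, 9.77, 252, 61.4 and 36.4 CPM in the treated livers. *Cyp2c69* was at 72.9, 80.3, 85.4, 135 and 64.9 CPM in the controls and 34.2, 0, 3.03, 2.85 and 0 CPM in the treated livers. For both genes mouse 451 was the highest treated liver, and for *Cyp2c69* the other treated livers were under the floor. The log2 fold change moved from -2.84 to -4.02 for *Sult3a1* and from -3.45 to -5.88 for *Cyp2c69* when mouse 451 was left out, with adjusted p values of 0.00119 and 8.18e-06. In DESeq2 the calls of *Sult3a1* and *Cyp2c69* were lost (adjusted p = 0.169 and 0.341). *Cyp2c67* was at 92.8, 3.64, 4.14, 11.3 and 10.2 CPM in the treated livers against 178, 214, 154, 331 and 231 CPM in the controls (log2 fold change -3.18 ± 0.95, adjusted p = 0.0541), and its call, which was lost without mouse 154, 452, 453, 454 or 455 (adjusted p up to 0.149), was at an adjusted p of 0.00227 without mouse 451 and 0.484 in DESeq2. *Sult2a1*, a sulfotransferase chosen after its values were seen, was at 1091, 2361, 4868, 4450.3 and 3843 CPM in the controls and 3023, 94.4, 10.4, 4.68 and 4.66 CPM in the treated livers, and did not pass the test (adjusted p = 0.258). Without mouse 451 the list had 11 decreased and 0 increased members, in DESeq2 6 and 0, and with all 40 libraries 4 and 0. *Sult1e1*, an estrogen sulfotransferase also chosen after its values were seen, is a member of the male-biased list below and not of this list. The female controls had 0, 515, 156, 79.7 and 7.91 CPM, with control 151 at 0. The 5 treated females had 0 molecules, at least 17-fold lower than the control mean. In males *Sult1e1* was at 0 CPM in every control and every liver at 5 mg/kg.

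**Figure D4:**
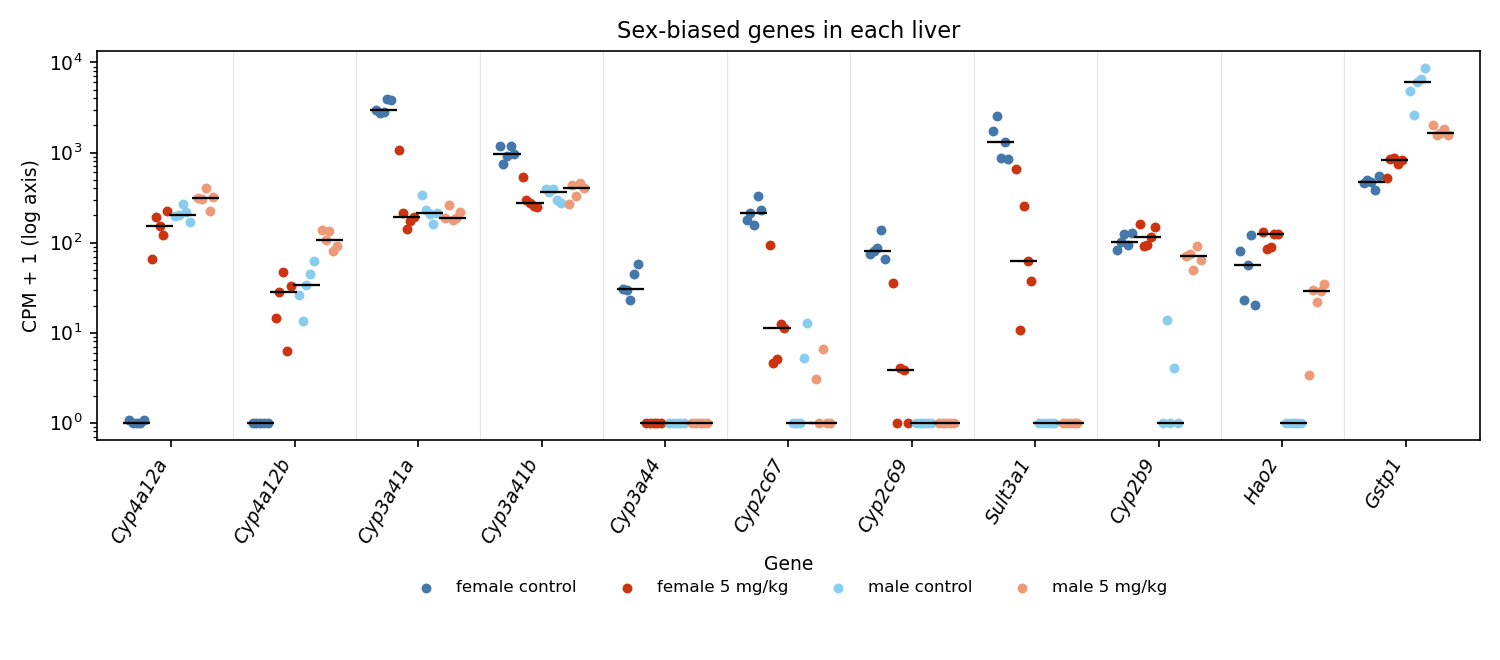
Level of 11 genes with a known difference between the sexes in each control and 5 mg/kg liver of both sexes, as CPM + 1 on a log axis, with 5 livers in each group. For *Cyp4a12a*, mice 452 and 455 lay within the male controls and the other treated females below them. Except for mouse 451, treated females lay near male controls for *Cyp3a41a* and *Cyp2c67*.

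The genes known for higher expression in male liver had no single direction in females, with 6 of 34 tested increased and 8 decreased. *Cyp4a12a* and *Cyp4a12b* belong to the increased members, and *Sult1e1*, which was at 0 CPM in the males, to the decreased members. *Egfr*, the receptor of epidermal growth factor, was a decreased member at 231, 318, 287, 119 and 319 CPM in the controls and 71.0, 46.1, 139, 89.8 and 72.7 CPM in the treated livers, where only control 154 lay within the treated range (log2 fold change -1.61 ± 0.28, adjusted p = 9.91e-05). *Gstp1*, a glutathione transferase that is far higher in males, was at 455, 490.2, 474, 384 and 553 CPM in control females and 519.9, 839.9, 864, 742 and 830.4 CPM in treated females (log2 fold change 0.69 ± 0.21, adjusted p = 0.0584), and the call was lost without mouse 151, 153, 154, 452, 453 or 455 (adjusted p up to 0.171). *Elovl3*, a male-biased elongase, was at 34.6 ± 26.9 to 28.1 ± 14.1 CPM in females and did not pass the test (adjusted p = 1). For male controls the means were 210.2 CPM of *Cyp4a12a*, 229 CPM of *Cyp3a41a*, 5715 CPM of *Gstp1* and 1118 CPM of *Elovl3*. For *Cyp4a12a*, mice 452 and 455 lay within the male controls (169 to 268 CPM) and the other treated females below them. For *Cyp3a41a*, mouse 451 (1071 CPM) lay above the highest male control (340 CPM) and the other treated females were close to the male controls. Treated females were not close to male controls for *Gstp1* or *Elovl3*. No test was made between treated females and control males.

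The same dose was given to 5 males, with 5 male controls. Of the 508 female DEGs 337 were DEGs in the same direction in males, 1 was a DEG in the opposite direction and 170 were DEGs in females only. In males 1160 genes (9.35%) passed the test. The difference between the sexes was itself tested, and passed an adjusted p below 10% for 148 genes (1.19%), 60 with a higher and 88 with a lower log2 fold change in females. Of the 170 genes called only in females, the difference passed for 22. For the other genes called only in females the test of the difference was not passed.

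The genes with the smallest p for the difference were mainly genes of lipid and drug metabolism. *Cyp4a12a* had a difference of 11.26 ± 0.78 (female minus male log2 fold change, adjusted p = 4.84e-14). Male controls had a mean of 210.2 CPM and treated males 312 CPM, so only the females began near 0. *Cyp4a12b* had a difference of 9.71 ± 1.38 (adjusted p = 2.23e-05), with male means of 34.9 and 109 CPM. *Ephx2* rose more in females, by a log2 difference of 0.99 ± 0.14 (adjusted p = 1.98e-05). Its male controls began higher, at 1452 CPM, and treated males reached 2406 CPM, near the treated females. *Gstp1* was the gene that was increased in females and decreased in males, from 5715 to 1726 CPM in males, with a difference of 2.42 ± 0.30 (adjusted p = 7.06e-07). *Cyp3a41b* fell in females and had means of 344 and 378 CPM in male controls and treated males (difference -1.76 ± 0.28, adjusted p = 0.000182).

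Other genes had the larger log2 change in males. *Fabp4*, the fatty acid-binding protein of adipocytes and macrophages, was at 64.5, 44.2, 49.9, 46.2 and 40.1 CPM in control females and 75.2, 59.1, 59.5, 86.5 and 71.3 CPM in treated females. Male controls had a mean of 34.4 CPM and treated males 729 CPM, and the difference was -3.89 ± 0.42 (adjusted p = 1.85e-08). *Aldh3a2* rose in both sexes and by more in males (difference -1.56 ± 0.24, adjusted p = 4.77e-05). *Cyp2c29* fell in both and by more in males, from 2225 to 314 CPM (difference 1.85 ± 0.24, adjusted p = 1.58e-06). *Abhd2*, a lipid hydrolase, went from 69.9 to 249 CPM in males and was at 274 ± 69.0 to 246 ± 46.9 CPM in females (difference -1.99 ± 0.29, adjusted p = 1.98e-05). *Ttc39c* went from 477 to 82.3 CPM in males and was at 74.0 ± 13.8 to 51.8 ± 14 CPM in females (difference 2.02 ± 0.32, adjusted p = 0.000103). Of the lipid genes above, *Cyp4a10* (-1.95 ± 0.48), *Acadl* (-0.82 ± 0.21), *Plin2* (-1.03 ± 0.26) and *Acot3* (-4.10) had differences that passed, with the smaller log2 change in females each time and adjusted p values of 0.0396, 0.0427, 0.0406 and 0.0345. Treated levels of *Cyp4a10* were alike, 2096 to 2755 CPM in females and 1963 to 2778 CPM in males, and male controls began lower, at 12.5 to 86.7 CPM. *Acot3* in treated males, at 94.6 to 187 CPM, lay below every treated female, and male controls were at 0 to 3.61 CPM. *Plin2* reached 1234 to 2279 CPM in treated females and 1997 to 4107 CPM in treated males. For *Ehhadh* the difference of -0.74 ± 0.23 did not pass (adjusted p = 0.126).

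**Figure D5:**
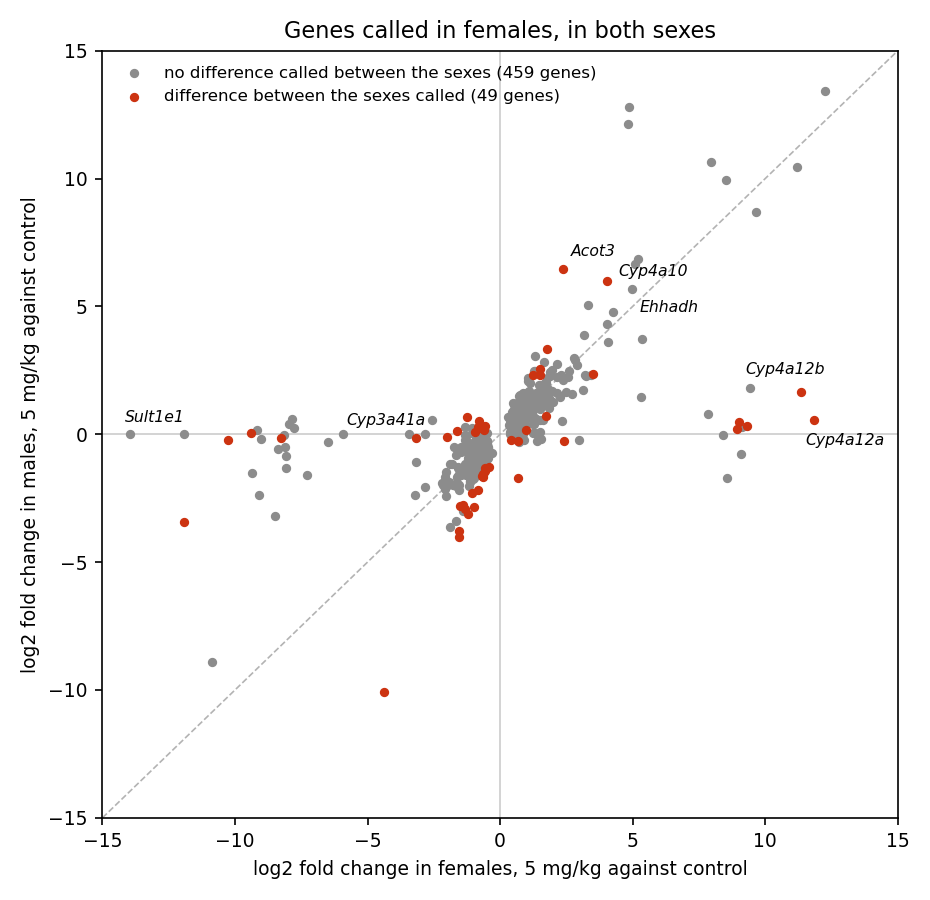
Log2 fold change at 5 mg/kg of each of the 508 female DEGs in females (horizontal axis) and in males (vertical axis), each sex against its own controls, with the diagonal dashed. Red points are the 49 DEGs with a difference between the sexes that passed the test and grey points the other 459. Points near the horizontal line, such as *Cyp4a12a* at 11.83 in females and 0.57 in males, moved in females and little in males, and fitted values beyond about 8 on either axis belong to genes near 0 in a group.

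Cell division and DNA damage genes did not pass in females. Of 48 DNA replication and mitosis genes 0 passed the test in edgeR, and their summed level was 133 to 257 CPM in the controls and 190.0 to 400.2 CPM in the treated livers. *Pcna*, the replication clamp, was at 20.6, 12.1, 21.7, 30.4 and 29.9 CPM in the controls and 21.7, 21.5, 27.1, 23.3 and 21.8 CPM in the treated livers. *Mki67*, a marker of dividing cells, was at or under the floor in all 10 livers, and nothing is read from it. Of 43 p53 targets and apoptosis regulators 0 passed, and *Cdkn1a* was at 11.5 ± 9.59 to 9.33 ± 10.5 CPM. Without adjustment, 8 of the 48 and 4 of the 43 had a p below 0.05 in edgeR, against 2238 of all 12412 genes tested. DESeq2 called 3 and 2.

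Of 32 genes of the unfolded protein and integrated stress response 3 were decreased and 0 increased. *Xbp1*, a transcription factor of this response, was at 167, 133, 119.8, 133 and 145 CPM in the controls and 86.8, 94.2, 109.6, 77.8 and 83.9 CPM in the treated livers, without overlap (log2 fold change -0.62 ± 0.17, adjusted p = 0.0312), and the call was lost without mouse 151 or 454 (adjusted p up to 0.11). *Hspa5*, the main chaperone of the endoplasmic reticulum, was at 5461, 3870.3, 2483, 3005 and 4999 CPM in controls and 2071, 4039, 1378, 1857 and 3318 CPM in treated livers and did not pass (adjusted p = 0.198). The list had 0 decreased members without mouse 454. Of 26 heat shock genes 5 were increased and 0 decreased, with *Hspa9*, the mitochondrial chaperone (0.54 ± 0.12, adjusted p = 0.00224), and the cytosolic *Hsp90ab1* (0.56 ± 0.12, adjusted p = 0.00316) free of overlap, and 3 were increased without mouse 153, 451 or 452. Of 45 tested genes of the proteasome list 3 were increased, *Psmb3* with the smallest p (0.55 ± 0.13, adjusted p = 0.00588), and 1 without mouse 452. The 3 include a transcription factor gene, which is not a subunit. Of 73 ribosomal protein genes 6 were increased and 63 had a positive log2 fold change, with a median of 0.21. *Rpl22* rose without overlap between the groups (0.50 ± 0.11, adjusted p = 0.00187). The shares called were 9.4% for the stress response, 19.2% for heat shock, 6.67% for the proteasome and 8.22% for ribosomal proteins. Over all genes tested the share was 4.09%.

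Of 30 NRF2 targets and antioxidant enzymes 5 were increased and 0 decreased. *Ephx1*, the microsomal epoxide hydrolase, was at 114, 96.1, 126, 129.7 and 146 CPM in the controls and 309.5, 403, 601, 418 and 482 CPM in the treated livers (log2 fold change 1.86 ± 0.23, adjusted p = 5e-08). *Gpx4*, which reduces lipid peroxides, rose from 111 ± 18.7 to 196 ± 20.2 CPM (0.82 ± 0.17, adjusted p = 0.00136) and the ferritin light chain *Ftl1* from 1916 ± 109 to 2816 ± 423 CPM (0.56 ± 0.11, adjusted p = 0.000514). *Nqo1*, a commonly used NRF2 target, was at 14.5, 10.6, 10.5, 18.3 and 11.7 CPM in the controls and 33, 13.8, 34, 8.56 and 7.97 CPM in the treated livers, with overlap (adjusted p = 1), and *Gclc* overlapped too (0.31 ± 0.31, adjusted p = 0.937). Without mouse 151, 155, 452, 453, 454 or 455 the count was 3. Of 12 immediate early genes 2 were decreased, *Ier2* without overlap (-1.01 ± 0.23, adjusted p = 0.00316) and *Dusp1* (-1.32 ± 0.39, adjusted p = 0.0472), for which the call was lost without mouse 153, 451, 452 or 454 (adjusted p up to 0.179). Of 18 clock genes and of 19 antigen presentation genes 0 passed, and DESeq2 called 2 and 1. An unadjusted p below 0.05 in edgeR was seen for 4 and 1 of them, against 2238 of all 12412 genes tested. *Dbp*, a clock output gene, was at 3.61, 5.14, 211, 6.0 and 53.3 CPM in the treated livers and 2.72, 0.515, 4.37, 6.52 and 4.45 CPM in the controls, with mice 453 and 455 high, and another of its probes passed as increased (log2 fold change 6.19, adjusted p = 0.0513).

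In bulk liver, fewer cells of a type and less RNA per cell cannot be told apart, and marker genes of the cell types were read beside these results. Of 10 hepatocyte markers 5 were decreased and 0 increased, and their summed level was 17230.0 to 21821 CPM in the controls and 13237 to 17854 CPM in the treated livers. Among the decreased hepatocyte markers, *Serpina1a*, *Ahsg* and *Fgb* were also counted above as decreased plasma protein genes, and *Cps1* as a urea cycle gene. These markers are therefore no separate reading of hepatocyte content. The part of hepatocyte content in the decrease of plasma protein genes was not tested. No marker passed the test for Kupffer cells and macrophages (15 tested, summed level 284 to 466 CPM in controls and 217 to 541 CPM in treated livers). The same was true of stellate cells and fibroblasts (15 tested, 185 to 340.4 CPM and 193 to 284 CPM) and of endothelial cells (14 tested, 521 to 626 CPM and 523 to 599 CPM). Cholangiocyte, lymphocyte, neutrophil and erythroid markers and those of neighbouring tissues also had 0 that passed, at mean summed levels of 63.2, 20.3, 35.7, 63.5 and 16.1 CPM in the controls and 42.1, 8.36, 14, 56.9 and 15.2 CPM in the treated livers. Over the lists of other cell types, adipocytes included, 11 of 78 tested markers had an unadjusted p below 0.05 in edgeR. Over all 12412 genes tested, 2238 had such a p, and DESeq2 called 0 of the 78 markers. Of 5 adipocyte markers 1 was decreased, *Car3*, which hepatocytes also express, at 727, 121, 615, 676 and 558 CPM in the controls and 184, 230.0, 337, 283 and 345 CPM in the treated livers, and the call was lost without mouse 151, 153, 154, 155, 451, 452, 453, 454 or 455 (adjusted p up to 0.263). *Fabp4*, the other abundant adipocyte marker, is given above.

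The lower doses in females had 5 mice at 0.1 mg/kg and 4 mice at 0.5 mg/kg, and their means are given as a description for genes chosen by their change at 5 mg/kg. *Ehhadh* had means of 263 CPM at 0.1 mg/kg, 836 CPM at 0.5 mg/kg and 7868 CPM at 5 mg/kg. *Cyp4a10* had 148, 578 and 2522 CPM and *Ephx2* 819.6, 1256 and 2316 CPM in the same order. *Cyp4a12a* was at 0 CPM at 0.1 mg/kg and 29.1 CPM at 0.5 mg/kg. Among decreased genes *Cyp3a41a* had 2245, 1154 and 357 CPM, *Apoa4* 569, 217 and 61.8 CPM, and *Serpina1e* 9579.8, 7209 and 2468 CPM. The means of these genes at 0.5 mg/kg lay between those of the controls and of 5 mg/kg.

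The genes with the largest fitted changes were mostly near 0 in 1 group. *Krt23*, a keratin, had no molecule in the controls and 29.8, 11.2, 12.2, 27.9 and 29.3 CPM in the treated livers, at least 2.9-fold higher. *Ly6d*, a surface protein of lymphoid and epithelial cells, had 2 and 47 molecules in the controls and the treated livers, a ratio of 28.5 with a counting interval of 7.46 to 242, and the call was lost without mouse 151, 152, 155, 451 or 452 (adjusted p up to 0.161). *Cox6b2*, a subunit of cytochrome c oxidase typical of testis, had 2 and 55 molecules, a ratio of 33.3 with an interval of 8.8 to 282, and the call was lost without mouse 451 (adjusted p up to 0.138). *Bhlhb9* had 1 and 24 molecules, a ratio of 29.1 with an interval of 4.74 to 1.2e+03, and the call was lost without mouse 151, 152, 153, 155, 451, 453 or 454 (adjusted p up to 0.175). *Ucp3*, *Tdrp* and *Aqp3* had no molecule in the controls and means at or under the floor in the treated livers, so no fold is given, and the call of *Ucp3* was lost without mouse 151, 152, 153, 154, 155 or 451 (adjusted p up to 0.131). In the other direction *Nat8f6*, of a family of acetyltransferases, had 42.3, 4.38, 45, 53.6 and 39.8 CPM in the controls and 0 molecules in the treated livers, at least 4.16-fold lower. *Rgs3*, a regulator of G-protein signalling, had 9.78, 10.1, 14, 17.8 and 6.71 CPM in the controls and 0 molecules in the treated livers, at least 1.31-fold lower. *Noct*, a phosphatase of NADPH with a daily rhythm, was at 38.8, 28.8, 29.3, 40.6 and 59.3 CPM in the controls and 7.52, 0, 5.66, 0 and 14.5 CPM in the treated livers (log2 fold change -2.83 ± 0.82, adjusted p = 0.0425), and the call was lost without mouse 155 (adjusted p up to 0.102). *Map2k6* and *Ubxn7* were at or under the floor in both groups on average, the call of *Map2k6* was lost without mouse 151, 152, 154, 451, 452, 453, 454 or 455 (adjusted p up to 0.163) and that of *Ubxn7* was lost without mouse 451, 452, 453, 454 or 455 (adjusted p up to 0.132).

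Among DEGs chosen after their values were seen, several were abundant. All named here but *Trf*, which is counted above among the acute-phase proteins, were outside the gene lists. *Retsat*, a retinol saturase, was at 89.8, 131, 173, 121 and 145 CPM in the controls and 1264, 1331, 1643, 1429.7 and 1771 CPM in the treated livers. The groups were widely apart (log2 fold change 3.49 ± 0.18, adjusted p = 2.4e-20). *Abhd6*, a monoglyceride lipase, rose from 30.6 ± 9.05 to 134 ± 32.5 CPM (2.13 ± 0.24, adjusted p = 7.96e-09). *Fn1*, the plasma fibronectin, fell from 1121 ± 182 to 542 ± 73.5 CPM (-1.05 ± 0.15, adjusted p = 2.48e-06) and *Trf*, the iron carrier transferrin, from 5883 ± 816 to 3687 ± 381 CPM (-0.67 ± 0.12, adjusted p = 0.000111). *Hsd11b1*, which regenerates active glucocorticoid, fell from 169.5 ± 17.3 to 59.7 ± 16.8 CPM (-1.51 ± 0.24, adjusted p = 2.23e-05) and *Ifitm3*, an antiviral membrane protein, from 307 ± 63.9 to 102 ± 51.1 CPM (-1.59 ± 0.24, adjusted p = 4.91e-06). Over all DEGs, mouse 453 was the lowest treated liver for 90 of the 260 increased genes and the highest for 81 of the 248 decreased genes, the most of the 5 treated livers.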

How the data were processed

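RNA from formalin-fixed liver of 40 mice was read with TempO-Seq. The deposited values are raw read counts per probe, which the authors obtained, per the labels, with bcl2fastq 2.17.1.14 and Bowtie (genome mm10). Where a read fits near-identical probes, the count may be shared between them. Mouse 355 was left out because its total was below the mean of the 40 libraries minus 2 SD (9680193 reads). The other 39 libraries, in 8 groups of sex and dose with no covariates, were fitted with edgeR 4.0.16 (R 4.3.3; TMM scaling, filterByExpr, quasi-likelihood test), and p values were adjusted by Benjamini-Hochberg over 17877 probes, with a threshold of 10%. Each mouse is a separate animal. A gene was read on its most counted probe. The sex difference was the contrast of both fold changes. The number of reads per molecule was taken from the first peak of each library's counts (Gaussian smoothing, 2 reads). Intervals are exact and cover counting error only, since reads carry no molecular identifier.

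The members and the 51 gene lists were chosen with earlier results of these data known, and no list was tested as a set. Of 1317 list symbols 1303 matched the panel, 8 of them by an older symbol. Genes were named by rule: the 15 largest and 15 smallest fold changes among called genes without overlap, up to 4 called members of smallest p in each list, preset key genes, and the 10 smallest p for the sex difference. *Abhd6*, *Ddx3y*, *Fn1*, *Hsd11b1*, *Ifitm3*, *Retsat*, *Sult1e1*, *Sult2a1* and *Trf* were chosen after their values were seen. Some genes that the rule takes are not reported here. Alternatives were DESeq2 1.42.0, its size factors, no filter, all 40 libraries, probes summed per gene, only the 10 libraries compared, whole molecules, a 5% threshold and each mouse left out in turn. The fit was tested on simulated counts. RefSeq promoters were used on GRCm38.p6.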

Additional observations from a re-analysis of the deposited data

Results flagged for a closer look

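The genes named, except *Cpt1b*, were searched for livers that stood apart from their group. In 28 of 354 groups of 5 livers (7.91%) a liver stood apart. Its gap to the nearest other, divided by the range of the group, was above Dixon's critical value of 0.71. That value singles out about 1 in 20 groups when values are independent and normally distributed. It was applied here to CPM that may be skewed or near 0, and near-identical genes may share reads. Some genes were also chosen after their values were seen, so the 7.91% cannot be compared with that rate. Mouse 451 was that liver in 8 of them, always as the highest of the treated livers. In CPM, and set against the range of the other treated livers, its values were *Acaa1a* (3798 against 1918 to 2358), *Cyp2c67* (92.8 against 3.64 to 11.3), *Cyp2c69* (34.2 against 0 to 3.03), *Cyp3a41a* (1071 against 142 to 210.5), *Cyp3a41b* (539.9 against 248 to 299), *Sult1a1* (858 against 359.6 to 463), *Sult2a1* (3023 against 4.66 to 94.4) and *Ucp3* (7.3 against 1.97 to 2.78). Except for *Acaa1a* and *Ucp3*, these are P450 and sulfotransferase genes. Other treated livers that stood apart were 454 for *Apob* (287 against 352 to 378), 455 for *Bdh1* (271 against 203 to 215), 453 for *Dbp* (211 against 3.61 to 53.3), 455 for *G6pc* (146 against 28.7 to 59.7) and 453 for *Gstm4* (99.0 against 71.2 to 76.8). Among the controls a liver was above the rest for *Bhlhb9* (1.75 against 0, mouse 154), *Cyp4a14* (86.8 against 2.7 to 25.5, mouse 153), *Fitm1* (2.14 against 0, mouse 153), *Gpd1* (1156 against 971 to 1007, mouse 152), *Gstm4* (40.9 against 21.9 to 25.9, mouse 151), *Me1* (89.9 against 40.9 to 53.4, mouse 151) and *Pmvk* (221 against 135 to 159, mouse 155). A control was below the rest for *Aldh1l1* (249 against 304 to 315, mouse 152), *Car3* (121 against 558 to 727, mouse 152), *Ces1c* (6108 against 8939.7 to 9903, mouse 152), *Cyp4f14* (89.5 against 119.9 to 132, mouse 154), *Ehhadh* (172 against 258 to 282, mouse 152), *Fga* (3926 against 5214 to 5653, mouse 154), *Nat8f6* (4.38 against 39.8 to 53.6, mouse 152) and *Serpina1a* (288 against 491 to 552, mouse 155). For *Bhlhb9* and *Fitm1* the high control held a single molecule.

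The log2 fold change at 5 mg/kg differed between the sexes for 29 of the genes named, tested as an interaction in edgeR with an adjusted p below 10%. It was higher in females (female minus male) for *Ces1f* (0.94, adjusted p = 0.0376), *Ces3b* (1.36, adjusted p = 0.00606), *Csad* (2.69, adjusted p = 0.00908), *Cyp2c29* (1.85, adjusted p = 1.58e-06), *Cyp2e1* (1.04, adjusted p = 0.0336), *Cyp4a12a* (11.26, adjusted p = 4.84e-14), *Cyp4a12b* (9.71, adjusted p = 2.23e-05), *Elovl3* (3.02, adjusted p = 0.046), *Ephx2* (0.99, adjusted p = 1.98e-05), *Gstp1* (2.42, adjusted p = 7.06e-07), *Hsd11b1* (1.30, adjusted p = 0.0526), *Retsat* (1.14, adjusted p = 0.00565), *Slc10a1* (1.36, adjusted p = 0.00107), *Sult1a1* (1.58, adjusted p = 0.0148), *Tdrp* (8.98, adjusted p = 0.0491) and *Ttc39c* (2.02, adjusted p = 0.000103). It was lower in females for *Abhd2* (-1.99, adjusted p = 1.98e-05), *Acadl* (-0.82, adjusted p = 0.0427), *Acot3* (-4.10, adjusted p = 0.0345), *Aldh3a2* (-1.56, adjusted p = 4.77e-05), *Cyp3a41a* (-3.04, adjusted p = 0.000231), *Cyp3a41b* (-1.76, adjusted p = 0.000182), *Cyp4a10* (-1.95, adjusted p = 0.0396), *Fabp4* (-3.89, adjusted p = 1.85e-08), *Gstm2* (-1.91, adjusted p = 0.0279), *Nat8f6* (-8.49, adjusted p = 0.00442), *Pdk4* (-9.30, adjusted p = 0.0655), *Plin2* (-1.03, adjusted p = 0.0406) and *Rgs3* (-10.06, adjusted p = 0.00345). For genes at or near 0 in a group, among them *Cyp4a12a*, *Cyp4a12b*, *Tdrp*, *Nat8f6*, *Rgs3* and *Pdk4*, the size of the fitted difference depends on the prior count. *Slc10a1*, the bile salt carrier, fell in both sexes and less in females, with means of 290.4 and 165 CPM in control and treated females and 314 and 69.5 CPM in control and treated males.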

How the results depend on the processing

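The counts of differentially expressed genes rested most on the shallow library of mouse 355, a female at 0.5 mg/kg in neither group compared. With all 40 libraries the female count was 180 (91 increased, 89 decreased), the members of the gene lists called fell from 249 to 104 and the genes with a sex difference from 148 to 23, and the cause was not tested. All 180 were among the 508. Counting whole molecules in place of reads tested 4290 genes and called 407 as increased. DESeq2 called 722 genes in females, 381 of them shared with edgeR, and 250 for the sex difference, which was 231 without the filter on low counts, and the cause was not tested. With 1 mouse left out the female count was 418 to 493 (212 to 250 increased, 202 to 243 decreased), the list members called 214 to 236 and the sex differences 93 to 169, the lowest without male 402. The other alternatives (DESeq2 size factors, no filter, probes summed per gene, only the 10 libraries compared) kept the female count within 392 to 583, and a 5% threshold gave 398. The share of increased genes stayed between 45.5% and 54.6% under these alternatives, against 51.2%. Of 146 genes named as differentially expressed, 90 were called in the same direction with all 40 libraries and 134 to 146 under each other setting, and 0 had the opposite direction. The calls lost in DESeq2 were *Acot3*, *Aqp3*, *Bhlhb9*, *Car3*, *Cyp2c67*, *Cyp2c69*, *Krt23*, *Ly6d*, *Noct*, *Sult3a1*, *Tdrp* and *Xbp1*, with adjusted p from 0.169 to 1. No paired analysis was possible because the labels give no replicate number shared by the groups. Depth limits genes under 3 molecules per library (7.61 CPM in the controls). Both means lay under it for 6049 genes tested, of which 29 were called, and these values rest on few molecules.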
